A study of Mus musculus with 8 samples.

Results

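The genes of 6 matrix metalloproteinases (Mmp2, Mmp9, Mmp11, Mmp13, Mmp14 and Mmp16) and of the 4 tissue inhibitors of metalloproteinases (Timp1 to Timp4) are described here in cells descended from hypertrophic chondrocytes of the mouse tibia. They were taken by gene symbol, and all 10 were found among the 48490 genes of the table. The study picked tdTomato-positive cells by hand from the proximal tibia of mice at postnatal day 5 and made each Smart-seq2 library from a pool of 70 cells. All mice carried Cre recombinase under control of Col10a1, a gene of hypertrophic chondrocytes, and the Rosa26-Tdtomato reporter, so that cells which had once expressed Cre, and their progeny, were labelled. GoF mice (2 libraries) also carried the Ctnnb1-exon3 Δ/+ allele, which stabilises β-catenin. LoF mice (4 libraries) carried Ctnnb1 Δ/Δ, in which the gene of β-catenin is deleted, and WT mice (2 libraries) carried the Cre and the reporter alone. No label says whether libraries of a group came from separate animals, and the p-values reflect only how far these libraries differ, which could be technical.

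Matrix metalloproteinases (MMPs) are zinc-dependent enzymes that cut collagens and other proteins outside the cell. Most are made as inactive precursors, and the 4 TIMPs bind and block the active enzymes. At the growth plate, MMP9 and MMP13 are known for removing cartilage matrix at the junction with bone, and MMP14 for remodelling of the bone collagen and for activating the MMP2 precursor together with TIMP2.

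Levels are in FPKM (fragments counted relative to transcript length and to the total of mapped fragments), so those of different genes can be set side by side. Fold values are ratios of group means of FPKM. Log2 fold changes compare the group means of log2(FPKM + 1). They were tested with limma over the 12888 genes that reached 1 FPKM in 2 or more libraries, and a gene was called changed at an adjusted p under 0.05. Of the 10 members, 9 passed the filter. Timp4 did not. The table gives no read totals. Among low genes, the most frequent ratio of a library to WT library 2 was assumed to be 1 fragment against 1 fragment. On that assumption, the depth of each library was 0.904 to 1.16 times that of WT library 2. The targeted gene Ctnnb1 averaged 79.3 ± 10.4 FPKM in GoF (SD, n = 2), 75.0 ± 7.17 in LoF (SD, n = 4) and 142 ± 5.98 in WT (SD, n = 2), with adjusted p of 0.176 for GoF and 0.11 for LoF against WT (limma). Col10a1 was above 0 in all 8 libraries, at 177 and 190 FPKM in GoF, 9.61 to 114 in LoF and 6.24 and 20.5 in WT. Y-linked transcripts were present in LoF libraries 2 and 3 and in both GoF libraries, and Xist in LoF libraries 1 and 4 and in both WT libraries, so sex and genotype cannot be told apart between GoF and WT libraries alone.

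In GoF against LoF, the opposite alleles, transcripts of Mmp9, Mmp13, Mmp11, Mmp14 and Timp3 were lower in GoF and Mmp16 was higher. These are 5 lower and 1 higher of 9 tested members, where 5.68% of all tested genes were lower, 5.97% higher and 11.6% changed in either direction. In LoF against WT, Mmp16 alone was called, as lower (1 of 9, where 0.667% of tested genes were lower, 0.566% higher and 1.23% changed). In GoF against WT, Mmp9, Mmp13, Mmp14 and Timp3 were lower (4 of 9, where 0.900% were lower, 1.41% higher and 2.31% changed). The libraries of both groups did not overlap for 8 of 9 members between GoF and LoF, 5 of 9 between LoF and WT and 7 of 9 between GoF and WT. Over all tested genes these shares were 33.5%, 21.4% and 48.0%. The median log2 fold change of the 9 members was -1.499 for GoF against LoF, 0.23 for LoF against WT and -1.38 for GoF against WT, beside -0.17, 0.06 and -0.08 over all tested genes. The 3 comparisons share libraries, so they do not support one another.

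**Figure D1:**
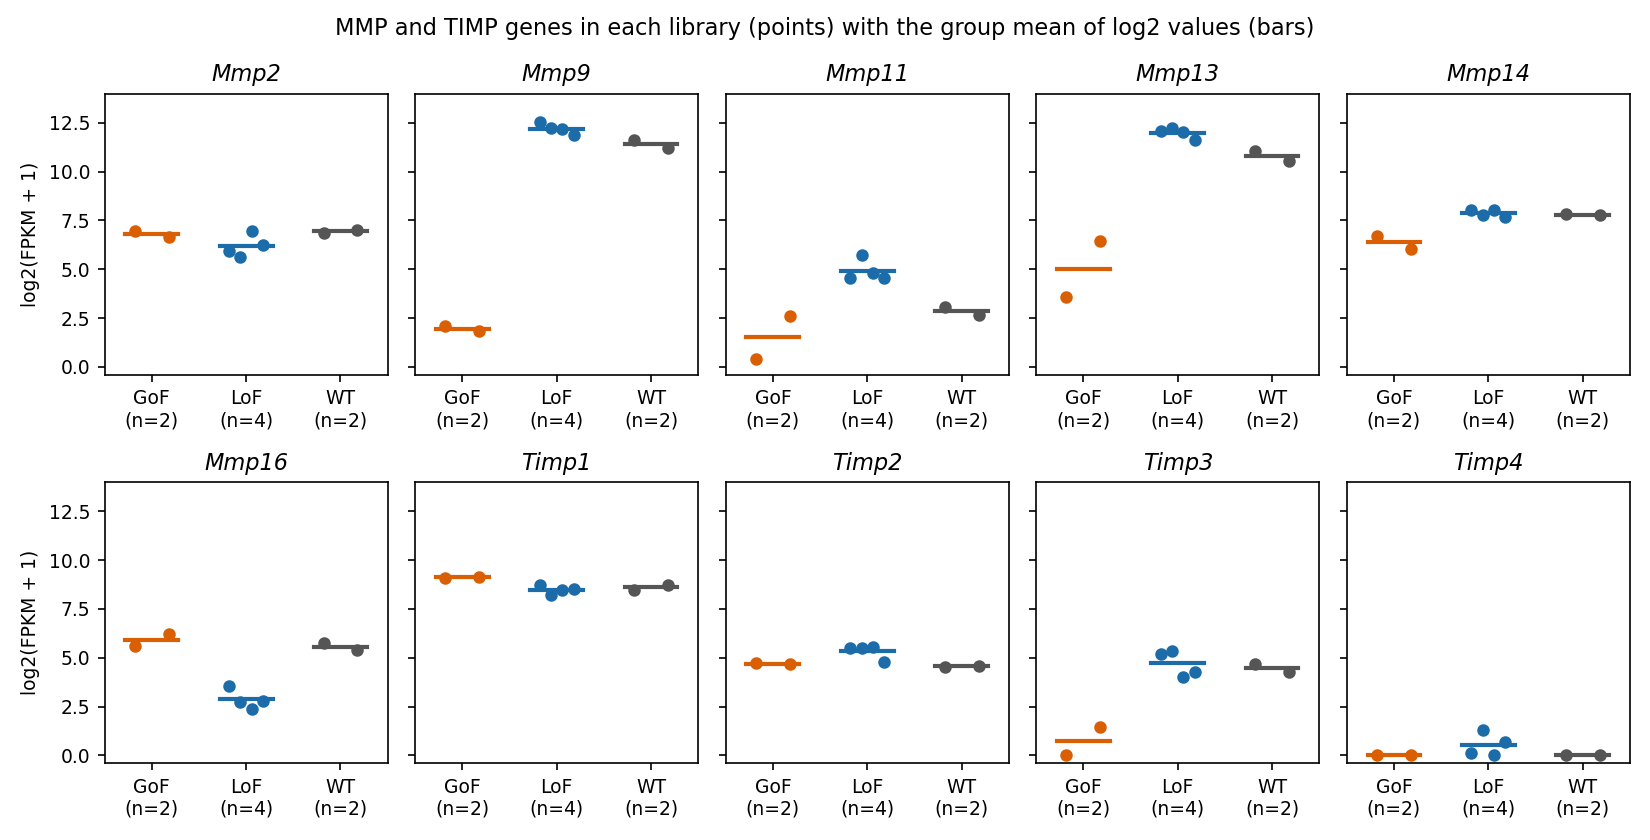
Level of each of the 10 genes as log2(FPKM + 1) in 2 GoF, 4 LoF and 2 WT libraries; points are libraries and bars are means of the log2 values. Mmp9 and Mmp13 lie far lower in both GoF libraries than in the 6 others, and Mmp16 lies lower in the 4 LoF libraries than in the other two groups.

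**Figure D2:**
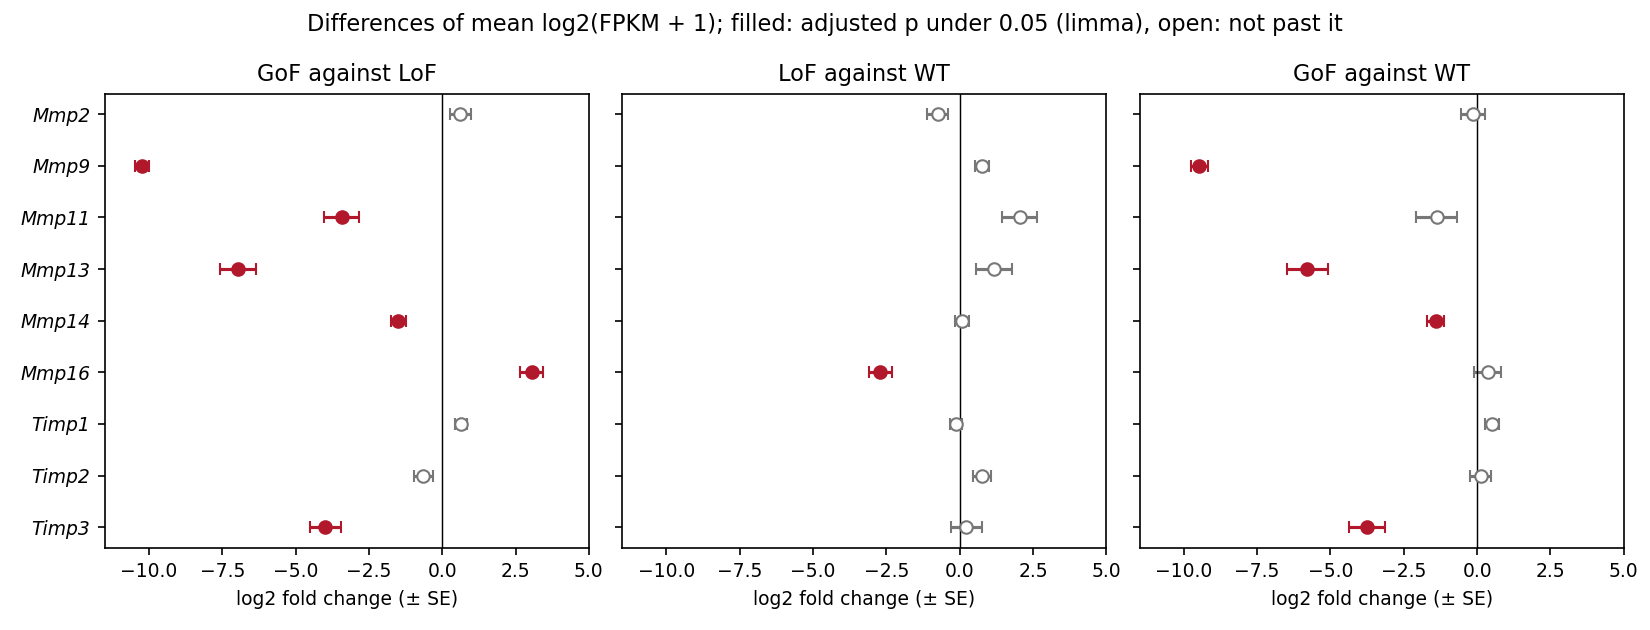
Log2 fold change with its standard error for the 9 tested members in the 3 comparisons (limma, all 3 groups fitted together); filled points have an adjusted p under 0.05. The change of Mmp9 in GoF, -10.24 against LoF and -9.47 against WT, lies farthest from 0 among the members.

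The gelatinases MMP9 and MMP2 cleave denatured collagen. Mmp9 (ENSMUSG00000017737.2, mm10 chromosome 2, 164940780 to 164955850, plus strand) had 3.28 and 2.56 FPKM in the GoF libraries, against 5913, 4768, 4691 and 3735 FPKM in the LoF libraries. The WT libraries had 3167 and 2403 FPKM. Ranked among all genes of its library, Mmp9 was at place 6762 and 7673 in GoF, between 3 and 6 in LoF, and at 10 and 14 in WT. The GoF mean of 2.92 ± 0.508 FPKM (SD, n = 2) was 1638-fold lower than the LoF mean of 4777 ± 892 (SD, n = 4) and 955-fold lower than the WT mean of 2785 ± 540 (SD, n = 2). Both differences passed (limma, log2 fold change -10.24, SE 0.24, adjusted p = 1.35e-08 against LoF, and -9.47, SE 0.28, adjusted p = 1.26e-07 against WT). All 4 LoF libraries lay above both WT libraries, by a ratio of means of 1.72, which did not pass (log2 fold change 0.77, SE 0.24, adjusted p = 0.182). Quantile normalization turned the last difference into a call (adjusted p = 0.0246). In this bulk measurement, fewer cells of a type and less RNA per cell cannot be told apart.

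Mmp2 (ENSMUSG00000031740.8, chromosome 8, 92827291 to 92853420, plus strand) showed another pattern. It had 125 and 100 FPKM in GoF, against 60.4, 48.6, 125 and 74.9 FPKM in LoF, and 117 and 128 FPKM in WT. LoF library 3 was as high as the GoF and WT libraries, and the other 3 LoF libraries were lower than all of those. No difference passed (limma, adjusted p = 0.324 for GoF against LoF, 0.411 for LoF against WT and 0.942 for GoF against WT). With 112 ± 17.1 FPKM in GoF (SD, n = 2), Mmp2 had the highest mean of the 6 MMP genes there, and its values overlapped those of Mmp14.

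Because Mmp9 is also a gene of osteoclasts and neutrophils, markers of those cells were read in the same libraries. Of 14 osteoclast markers, 7 stayed below 1 FPKM in every library, and Calcr, Dcstamp, Ocstamp and Siglec15 were listed at 0 in all 8. The 14 summed to 132 and 154 FPKM in GoF, 110 to 138 in LoF and 114 and 132 in WT. Ctsk was the largest single part of each sum. Ctsk, the cathepsin K gene, had 76.5 and 77.8 FPKM in GoF, 53.0 to 69.5 in LoF and 58.5 and 69.1 in WT (limma, adjusted p = 0.474 in GoF against LoF). Of the 7 osteoclast markers tested in GoF against LoF, Acp5 was higher and Itgb3 and Tcirg1 were lower, all of them calls that ended without GoF replicate 1 (adjusted p = 0.247, 0.15 and 0.347). Without GoF replicate 2, Acp5 (0.129) and Itgb3 (0.195) did not pass either, nor did Acp5 without LoF replicate 4 (0.0561) or Tcirg1 without LoF replicate 1 (0.0531) or 3 (0.0512). The 15 myeloid and neutrophil markers summed to 11.99 and 11.2 FPKM in GoF, 45.0 to 137 in LoF and 112 and 295 in WT. The GoF libraries had the lowest myeloid sums and the lowest Mmp9 levels of the 8. LoF library 1, with the highest Mmp9 level, held the lowest myeloid sum among the LoF and WT libraries. Single markers differed in LoF library 1. There S100a8 and S100a9 were listed at 0, while Camp (15.5 FPKM) was higher than in the other 3 LoF libraries. In GoF against LoF, Fcer1g of the 11 tested myeloid markers was lower and none was higher. The shares over all tested genes were 5.68% lower and 5.97% higher. The call of Fcer1g ended without LoF replicate 2 (adjusted p = 0.0569), 3 (0.0512) or 4 (0.053) and without GoF replicate 1 (0.234), and the count was 3 without LoF replicate 1. Of the remaining lists, 6 endothelial markers summed to 0.541 and 1.19 FPKM in GoF, 0.564 to 57.1 in LoF and 0.334 and 0.549 in WT, and 7 pericyte and smooth muscle markers to 3.94 and 5.08, 36.7 to 71.2, and 23.6 and 35.5 in the same order. The 6 erythroid markers summed to 895 and 1838 FPKM in GoF, 76.0 to 2273 in LoF and 2557 and 10567 in WT. The part of the osteoclast, myeloid, pericyte, endothelial and erythroid levels in the MMP differences was not tested.

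Markers of the labelled lineage differed between the groups too. In GoF against LoF, 7 of 7 osteoblast and 4 of 8 hypertrophic chondrocyte markers were higher, and 4 of 5 marrow stromal and 4 of 6 adipocyte markers were lower (limma). Among all tested genes, 5.97% were higher and 5.68% lower. Without GoF replicate 1, 3 osteoblast and 1 hypertrophic chondrocyte markers were called, and without GoF replicate 2 the counts were 4 and 2. The marrow stromal count stayed at 4 with any 1 library left out. The 7 osteoblast markers summed to 10674 and 13826 FPKM in GoF, 789 to 2090 in LoF and 10090 and 12525 in WT. In the same order, the 8 hypertrophic chondrocyte markers summed to 8450 and 11650, 645 to 1196, and 4024 and 5725. Alpl is on both lists. Col10a1 (190 and 177 FPKM) and Alpl (508 and 593 FPKM) were small parts of the hypertrophic chondrocyte sums in GoF. Those sums therefore mostly reflect other genes of the list. Of the 8, Ibsp alone was called in LoF against WT, as lower (limma), a call lost in 5 of 16 alternatives. Col10a1 did not follow the sum, at 63.1 ± 42.8 FPKM in LoF (SD, n = 4) and 13.4 ± 10.1 in WT (SD, n = 2). LoF library 1 (9.61 FPKM) lay between the WT libraries. The 5 marrow stromal markers summed to 39.7 and 61.1 FPKM in GoF, 590 to 1833 in LoF and 96.6 and 345 in WT, and the 6 adipocyte markers to 0.809 and 4.44, 501 to 774, and 19.5 and 116. Osteoblast sums were high in GoF and WT, while Mmp9 and Mmp13 were low in GoF alone. The marrow stromal and adipocyte sums, like Mmp9 and Mmp13, were lowest in GoF and highest in LoF. The pericyte and smooth muscle sum given above had the same order. The part of these cell states in the MMP differences was not tested.

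MMP13 is the main collagenase of hypertrophic cartilage and of bone-forming cells in the mouse. Mmp13 (ENSMUSG00000050578.9, chromosome 9, 7272514 to 7283333, plus strand) had 10.9 and 86.7 FPKM in GoF, against 4312, 4784, 4119 and 3113 FPKM in LoF. The WT libraries had 2106 and 1514 FPKM. The 2 GoF libraries lay farther apart on the log scale than libraries within LoF or WT, and both lay far below the lowest WT library. Among all genes of its library, Mmp13 was at place 3427 and 646 in GoF, at 5 in every LoF library, and at 11 and 21 in WT. Its GoF mean was 83.6-fold lower than the LoF mean and 37.1-fold lower than the WT mean (limma, log2 fold change -6.96, SE 0.60, adjusted p = 0.000148, and -5.79, SE 0.70, adjusted p = 0.0033). LoF libraries again all lay above WT, with a ratio of means of 2.25 that did not pass (adjusted p = 0.449). The call against WT ended with a sex term (adjusted p = 0.0897), a term on which all GoF libraries differ from all WT libraries.

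Mmp13 lies at one end of a cluster of 10 MMP genes that spans 427.1 kb of chromosome 9. Only Mmp13, Mmp10 and Mmp20 of these 10 passed the filter, and they differed in where they were high. Mmp10, the gene of a stromelysin, had 0.449 and 0 FPKM in GoF, against 25.3, 25.1, 11.7 and 13.6 FPKM in LoF, with 0 and 13.4 in WT. GoF was lower than LoF (limma, log2 change -3.97, SE 0.88, adjusted p = 0.0172), but not without GoF replicate 1 (adjusted p = 0.0739) or without GoF replicate 2 (0.0986). Mmp20, the gene of enamelysin, an enzyme best known from tooth enamel, had 40.7 and 12.9 FPKM in GoF and was listed at 0 in all LoF and WT libraries. Its level in GoF was above those of LoF and WT (limma, adjusted p = 0.000398 and 0.0038), and the second call ended without WT replicate 1 (adjusted p = 0.0505). Mmp20 passed the filter through the GoF libraries alone, so these p-values add no support beyond the levels themselves. Without either GoF library, Mmp20 reached 1 FPKM in 1 library and was not tested. Mmp10 and Mmp20 start 229.8 and 355.7 kb from the start of Mmp13. The other 7 genes of the cluster stayed below 1 FPKM in every library, and Mmp3, Mmp27 and Mmp7 were listed at 0 in all 8.

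The 250 bases before the RefSeq start of these 3 cluster genes are shown because neighbours in one cluster were high in different groups. They are RefSeq sequences of the build GRCm38.p6, 5′ to 3′ on the plus strand. Capitals mark matches to the AP-1 motif TGANTCA (N is any base) and to the RUNX motif ACCACA or its reverse complement TGTGGT. The windows are chr9:7272264-7272513 for Mmp13, chr9:7502092-7502341 for Mmp10 and chr9:7627981-7628230 for Mmp20.
Mmp13: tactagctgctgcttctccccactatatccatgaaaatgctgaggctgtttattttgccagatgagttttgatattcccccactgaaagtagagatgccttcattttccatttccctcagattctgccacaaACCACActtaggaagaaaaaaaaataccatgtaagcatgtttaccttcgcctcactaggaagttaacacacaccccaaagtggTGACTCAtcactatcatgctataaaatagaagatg
Mmp10: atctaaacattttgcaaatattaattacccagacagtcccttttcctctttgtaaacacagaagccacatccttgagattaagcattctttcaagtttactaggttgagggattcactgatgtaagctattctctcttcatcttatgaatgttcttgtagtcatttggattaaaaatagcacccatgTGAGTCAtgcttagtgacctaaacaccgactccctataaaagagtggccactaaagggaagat
Mmp20: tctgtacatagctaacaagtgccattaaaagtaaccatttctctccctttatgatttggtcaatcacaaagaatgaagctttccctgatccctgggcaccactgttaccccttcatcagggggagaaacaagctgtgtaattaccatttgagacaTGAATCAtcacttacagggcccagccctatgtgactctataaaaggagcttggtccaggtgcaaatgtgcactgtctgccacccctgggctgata
The AP-1 match begins 35 bases before the start in Mmp13, 63 in Mmp10 and 95 in Mmp20. Its middle base, which the search left free, is C in Mmp13, G in Mmp10 and A in Mmp20. Mmp13 also holds a RUNX match that begins 118 bases before its start. Matches were searched on both strands, and none of those in capitals overlap. An AP-1 match stood in 8 of the 12 windows of the cluster genes, and in 6.75% of all 32851 windows of this length. These 8 windows belong to 8 of the 10 cluster genes. For Mmp12 the match was only in the second window, which lies inside the gene. A RUNX match stood in 14.05% of all windows, and among the members Mmp14 also held one, 114 bases before its RefSeq start. The TCF/LEF motif CTTTGAT was searched because β-catenin acts through TCF/LEF factors. It stood in 1 of the 12 windows of the cluster genes, in none of the 7 windows of members and in 3.21% of all windows. The match is in the second of 2 windows of Mmp7, 247 bases before the RefSeq start of that window. This window lies inside the gene as listed, and the window before the gene held no match. The PEA3/ETS motif AGGAAG, also searched, stood in 29.5% of all windows, and in Mmp13 it begins 109 and 62 bases before the start. Mmp14, Timp1, Timp3 and Timp4 held matches to it too. The TATA box TATAAA stood in 12.4% of all windows and begins 16 bases before the start in Mmp13, 29 in Mmp10 and 58 in Mmp20. Of the 10 members, 7 had a window, and 1 of these 7, Mmp13, held an AP-1 match. Mmp2, Mmp9 and Mmp16 had no entry. A match describes the letters of the window and is not evidence of binding.

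**Figure D3:**
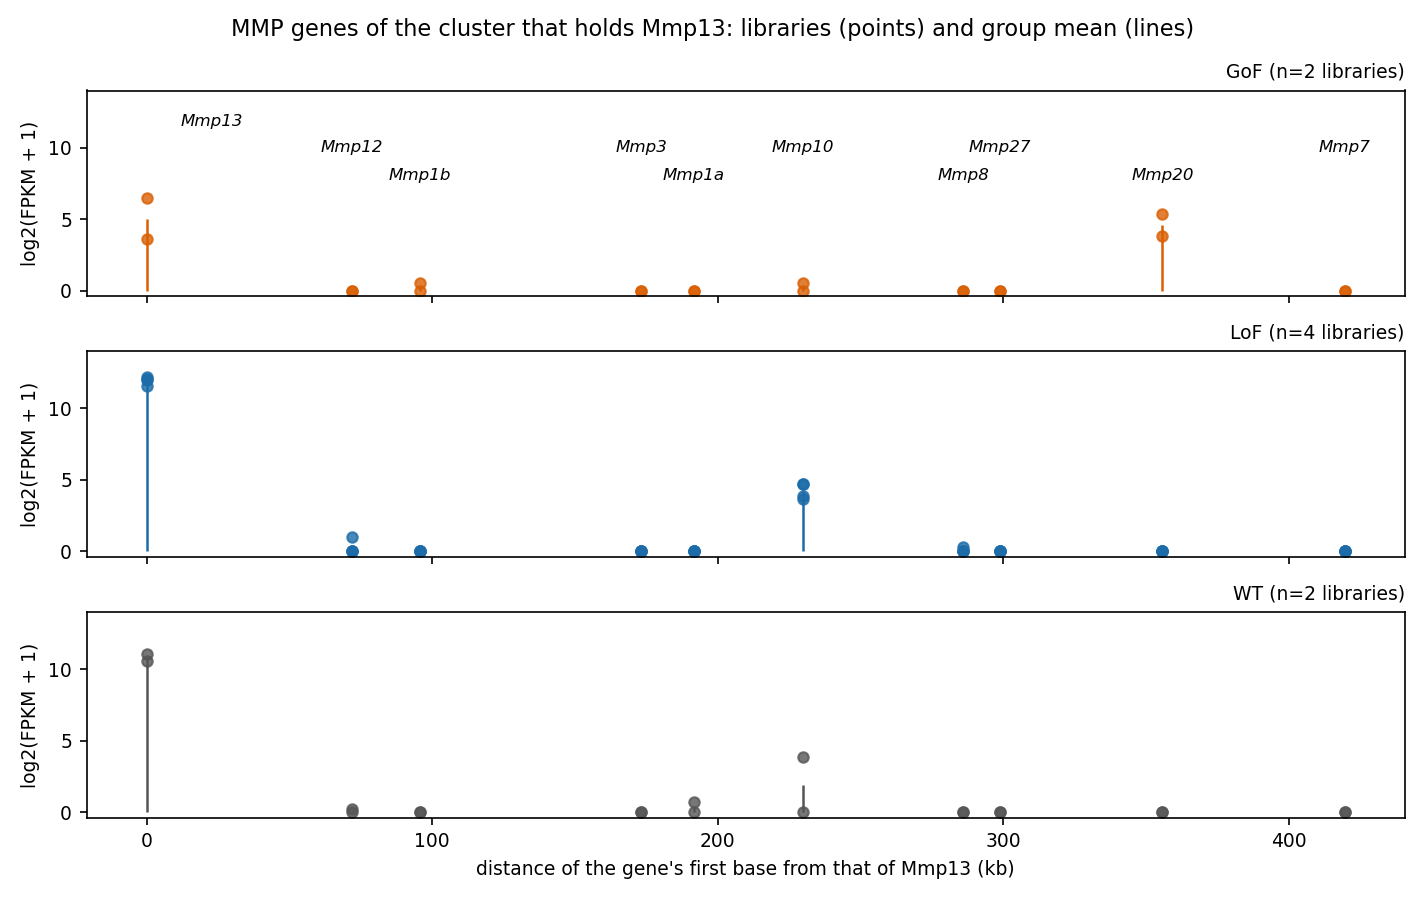
Levels of the 10 clustered MMP genes as log2(FPKM + 1) against the distance of each gene's first base from that of Mmp13 in kb, for GoF, LoF and WT libraries from top to bottom; points are libraries and lines reach the group mean. Mmp20 is above 0 in GoF libraries alone, and Mmp10 is above 10 FPKM in the 4 LoF libraries and 1 WT library.

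MMP11, or stromelysin-3, differs from most secreted MMPs in that furin-type convertases activate it inside the cell. Mmp11 (ENSMUSG00000000901.15, chromosome 10, 75923222 to 75932502, minus strand) had 0.320 and 5.10 FPKM in GoF, against 22.8, 51.8, 27.4 and 22.8 FPKM in LoF. The WT libraries had 7.49 and 5.40 FPKM, so the 3 groups did not overlap. It was 11.51-fold lower in GoF than in LoF (limma, log2 change -3.42, SE 0.60, adjusted p = 0.00535), and without GoF replicate 1 this call ended (adjusted p = 0.0554). The LoF mean was 4.84-fold above the WT mean, which did not pass (log2 change 2.04, SE 0.60, adjusted p = 0.153), nor did GoF against WT (adjusted p = 0.409). In GENCODE M21, where Mmp11 extends to 75936496 instead of 75932502, 1 exon of Mmp11 touches Chchd10 on the other strand. Whether the overlap lies within the interval given above was not tested. Chchd10 reached at most 6.78 FPKM, and Smart-seq2 does not record the strand.

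The membrane-anchored MMPs went opposite ways between GoF and LoF. Mmp14 (ENSMUSG00000000957.9, chromosome 14, 54431612 to 54441265, plus strand), whose product MT1-MMP cuts collagen at the cell surface, had 102 and 65.7 FPKM in GoF, against 262, 215, 257 and 204 FPKM in LoF, and 223 and 218 FPKM in WT. The GoF libraries lay below all others, and the WT libraries lay within the LoF range. It was 2.80-fold lower in GoF than in LoF (limma, log2 change -1.499, SE 0.25, adjusted p = 0.00443), but not without GoF replicate 2 (adjusted p = 0.0704). It was 2.63-fold lower than in WT (limma, -1.42 on the log2 scale, SE 0.29, adjusted p = 0.0344). That call was lost in 11 of 16 alternatives, among them leaving out LoF replicate 2 (adjusted p = 0.0565), either GoF library (0.0826 and 0.255) or either WT library (0.21 and 0.161).

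Mmp16 (ENSMUSG00000028226.15, chromosome 4, 17852893 to 18119145, plus strand) encodes MT3-MMP, another membrane-anchored enzyme that can activate the MMP2 precursor. It had 48.0 and 73.9 FPKM in GoF, against 10.7, 5.72, 4.27 and 5.80 FPKM in LoF, and 52.8 and 40.7 FPKM in WT. Here the LoF libraries stood apart, and GoF and WT libraries overlapped. It was 9.20-fold higher in GoF than in LoF (limma, log2 change 3.06, SE 0.39, adjusted p = 0.000999) and passed under each of 16 alternatives (adjusted p up to 0.0343). It was 7.06-fold lower in LoF than in WT (limma, log2 change -2.70, SE 0.39, adjusted p = 0.0155), which did not hold without WT replicate 1 (adjusted p = 0.154) or WT replicate 2 (0.156). GoF against WT did not pass (adjusted p = 0.799).

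Among the inhibitors, Timp3 was lower in GoF and no difference of Timp1 or Timp2 passed. Timp1 (ENSMUSG00000001131.11, chromosome X, 20870166 to 20874735, plus strand), a secreted inhibitor that also binds the MMP9 precursor, had 550 and 559 FPKM in GoF, against 423, 300, 348 and 364 FPKM in LoF, and 357 and 424 FPKM in WT. Both GoF libraries lay above the other 6, by a ratio of means of 1.55 to LoF and 1.42 to WT. Neither passed (limma, log2 fold change 0.64, SE 0.22, adjusted p = 0.0953, and 0.51, SE 0.25, adjusted p = 0.403), while median ratio scaling called the first (adjusted p = 0.0493). Timp1 lies inside Syn1, which runs on the other strand, touches none of its exons and reached at most 0.561 FPKM. Timp1 took 95.5% and 95.6% of the summed TIMP level in GoF, 77.8% to 89.0% in LoF and 88.4% and 91.1% in WT.

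Timp2 (ENSMUSG00000017466.9, chromosome 11, 118301069 to 118355740, minus strand), which both inhibits MMPs and helps MMP14 to activate MMP2, had 25.4 and 24.4 FPKM in GoF, against 44.6, 44.7, 46.0 and 26.1 FPKM in LoF, and 22.4 and 23.2 FPKM in WT. LoF library 4 stood near the GoF and WT values, and the other 3 LoF libraries stood above them. No difference passed (limma, adjusted p = 0.243 for GoF against LoF, 0.331 for LoF against WT and 0.937 for GoF against WT).

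Timp3 (ENSMUSG00000020044.13, chromosome 10, 86300372 to 86349506, plus strand), the TIMP that stays bound to the matrix and also inhibits ADAM and ADAMTS proteases, had 0 and 1.69 FPKM in GoF, against 35.8, 39.5, 15.0 and 18.5 FPKM in LoF, and 24.5 and 18.4 FPKM in WT. The GoF libraries lay below all others, and the LoF and WT libraries overlapped. GoF was lower than LoF (limma, log2 change -3.99, SE 0.53, adjusted p = 0.00118) and lower than WT (-3.76, SE 0.61, adjusted p = 0.0119). The second call ended without GoF replicate 1 (adjusted p = 0.097), without WT replicate 1 (0.132) and without WT replicate 2 (0.0748). Timp3 lies inside Syn3, which runs on the other strand and touches 1 of its exons, and which was listed at 0 and 0.852 FPKM in GoF, 5.35 to 24.9 in LoF and 7.52 and 8.45 in WT. Reads of both genes cannot be told apart where they overlap. Timp4 (ENSMUSG00000030317.8, chromosome 6, 115241892 to 115252205, minus strand), which lies inside Syn2, was listed at 0 in both GoF and both WT libraries and at 0.103, 1.43, 0 and 0.633 FPKM in LoF, too low to be tested.

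Set against each other, the summed levels of the 6 MMP genes were 289 and 334 FPKM in GoF, 7155 to 10581 in LoF and 5672 and 4310 in WT. The 4 TIMP genes summed to 575 and 585 FPKM in GoF, 385 to 504 in LoF and 404 and 466 in WT. The ratio of MMP to TIMP level was 0.502 and 0.572 in GoF, 17.5 to 25.6 in LoF and 14.1 and 9.25 in WT. Mmp9 and Mmp13 made up 4.92% and 26.7% of the MMP sum in GoF, 95.5% to 96.7% in LoF and 93.0% and 90.9% in WT. Without these 2 genes, the ratio was 0.478 and 0.419 in GoF, 0.707 to 1.01 in LoF and 0.990 and 0.843 in WT. The 6 MMP genes took 0.0818% and 0.0875% of all FPKM in GoF, 2.05% to 3.61% in LoF and 1.75% and 1.25% in WT. These ratios compare transcripts and not enzyme activity, and no test was made on them.

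**Figure D4:**
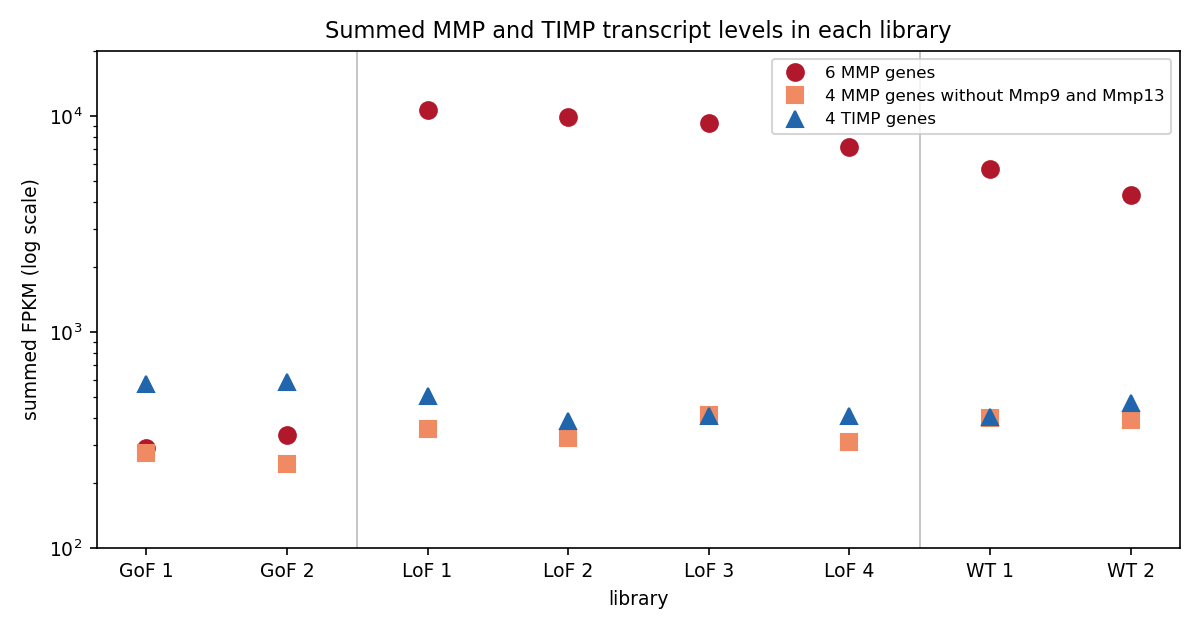
Summed FPKM on a log scale in each of the 8 libraries for the 6 MMP genes, for the 4 MMP genes without Mmp9 and Mmp13, and for the 4 TIMP genes. In GoF the MMP sum of 289 and 334 lies below the TIMP sum of 575 and 585, and in every LoF and WT library the MMP sum is above the TIMP sum.

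The order of levels within a group changed with the genotype. In GoF, Timp1 was highest, followed by Mmp2, Mmp14, Mmp16 and Mmp13, whose values each overlapped those of the next in order, then Timp2, and then Mmp9, Mmp11, Timp3 and Timp4, which overlapped in turn. In LoF, Mmp9 and Mmp13 came first and overlapped, followed without overlap by Timp1, Mmp14 and Mmp2, then by Timp2, Mmp11 and Timp3, which overlapped in turn, and last by Mmp16 and Timp4. In WT the order was Mmp9, Mmp13, Timp1, Mmp14, Mmp2, Mmp16, Timp2, Timp3, Mmp11 and Timp4, and only Timp2 and Timp3 overlapped.

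Genes with profiles nearest to those of the called members were sought among up to 3726 other tested genes with a mean of at least 10 FPKM. The measure was the root mean square difference of log2(FPKM + 1) over the 8 libraries, each gene centred on its own mean. It is a description, and the libraries of a group share their genotype. For Mmp9 these were Cxcl12 (1.32), Mmp13 (1.69) and Wisp2 (1.79), so no gene came close. For Mmp13 they were Wisp2 (0.58), Mest (0.84) and Igfbp4 (0.90). For Mmp11 they were Kitl (0.44), Clmp (0.52) and Igf1 (0.53), and for Timp3 they were Cd55 (0.48), Cald1 (0.49) and Fap (0.52). For Mmp14 they were Amotl1 (0.23), Ap2a2 (0.24) and Mpzl1 (0.24). For Mmp16 they were the cartilage collagen gene Col11a1 (0.24), Chn1 (0.28) and Tmem119 (0.35).

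Most other MMP genes were low in all libraries. Of 17 further MMP genes, 4 passed the filter on low values, 6 reached 1 FPKM in any library and 4 were listed at 0 in all 8. In GoF against LoF, Mmp20 was higher, Mmp10 and Mmp19 were lower and 1 did not pass. Mmp20 had passed the filter through its GoF libraries alone. The share of all tested genes that changed in this comparison was 11.6%. Mmp19 had 0 and 0.160 FPKM in GoF, against 3.26, 1.42, 3.78 and 2.28 FPKM in LoF (limma, adjusted p = 0.0317). That call was lost in 8 of 16 alternatives, among them leaving out LoF replicate 1 (adjusted p = 0.056), GoF replicate 1 (0.296), GoF replicate 2 (0.18), WT replicate 1 (0.0515) or WT replicate 2 (0.0522). Mmp23, the remaining one, had 44.0 and 49.0 FPKM in GoF, against 25.5, 30.7, 30.6 and 22.7 FPKM in LoF (adjusted p = 0.117). None of the 4 was called by limma in LoF against WT, and 2 had an unadjusted p under 0.05.

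Activators of MMPs include proprotein convertases, the plasminogen system and related proteases. Of 11 tested genes of these, 4 were higher in GoF than in LoF, 1 was lower and 6 did not pass. Among all tested genes, 5.97% were higher and 5.68% lower. Pcsk6 and Pcsk5, convertase genes of the furin family, had 48.3 and 50.6, and 40.7 and 35.3 FPKM in GoF, against ranges of 3.18 to 7.16 and 1.73 to 5.19 FPKM in LoF. Both differences passed (limma, log2 fold change 2.99, SE 0.37, adjusted p = 0.000805, and 2.98, SE 0.43, adjusted p = 0.00206) and did so in all 16 alternatives. Furin itself had 12.4 and 1.62 FPKM in GoF, against 1.04 to 3.71 FPKM in LoF (adjusted p = 0.423). Plaur, the urokinase receptor gene, and Bsg, the gene of the MMP inducer basigin, were 4.46-fold and 2.02-fold higher (adjusted p = 0.0301 and 0.0373). Prss23, a serine protease gene, was lower (adjusted p = 0.0403). The calls of Plaur, Bsg and Prss23 ended without GoF replicate 1 (adjusted p = 0.171, 0.121 and 0.164) and without GoF replicate 2 (0.191, 0.282 and 0.207), and that of Plaur also without LoF replicate 2 (0.0621) or 4 (0.0565). The call of Bsg ended too without LoF replicate 1, 2 or 3 (0.0518, 0.0715 and 0.0533) and either WT library (0.062 and 0.0616), and that of Prss23 without LoF replicate 2, 3 or 4 (0.0818, 0.0541 and 0.0595) and either WT library (0.0616 and 0.0614). None of the 11 was called by limma against WT, in LoF or in GoF, with 2 and 4 at an unadjusted p under 0.05. The median log2 fold change of the 11 was 0.50 in GoF against LoF and 0.61 in GoF against WT, beside -0.17 and -0.08 over all tested genes. Libraries did not overlap for 6 and 9 of the 11, where the shares over all tested genes were 33.5% and 48.0%.

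Of 7 tested genes on the list of other inhibitors, clearance receptors and collagen-processing partners, 3 were higher in GoF than in LoF, 1 was lower and 3 did not pass. The shares over all tested genes were 5.97% higher and 5.68% lower. Reck, the gene of a membrane-anchored MMP inhibitor, had 13.7 and 11.4 FPKM in GoF, against 2.59, 4.03, 2.00 and 0.662 FPKM in LoF. It was higher (limma, log2 fold change 2.13, SE 0.57, adjusted p = 0.0383), but not without LoF replicate 1 (adjusted p = 0.0555), LoF replicate 3 (0.0553), LoF replicate 4 (0.0634), GoF replicate 1 (0.265) or GoF replicate 2 (0.157). The other 2 higher genes are not MMP inhibitors. Serpinh1, which encodes a collagen chaperone, had 344 and 321 FPKM in GoF and 70.8 to 139 FPKM in LoF (adjusted p = 0.00301), and Pcolce, an enhancer of procollagen cleavage, was 2.75-fold higher (adjusted p = 0.00312). Serpine2, a serine protease inhibitor gene, was lower in GoF, at 522 and 758 FPKM against 1291 to 1710 FPKM in LoF (adjusted p = 0.0138, and 0.171 without GoF replicate 1). Serpinh1 was also lower in LoF than in WT (limma, log2 change -1.80, SE 0.28, adjusted p = 0.0201), but not without LoF replicate 2 (0.0531), WT replicate 1 (0.175) or WT replicate 2 (0.19). In GoF against WT none of the 7 was called by limma, with 2 at an unadjusted p under 0.05.

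**Figure D5:**
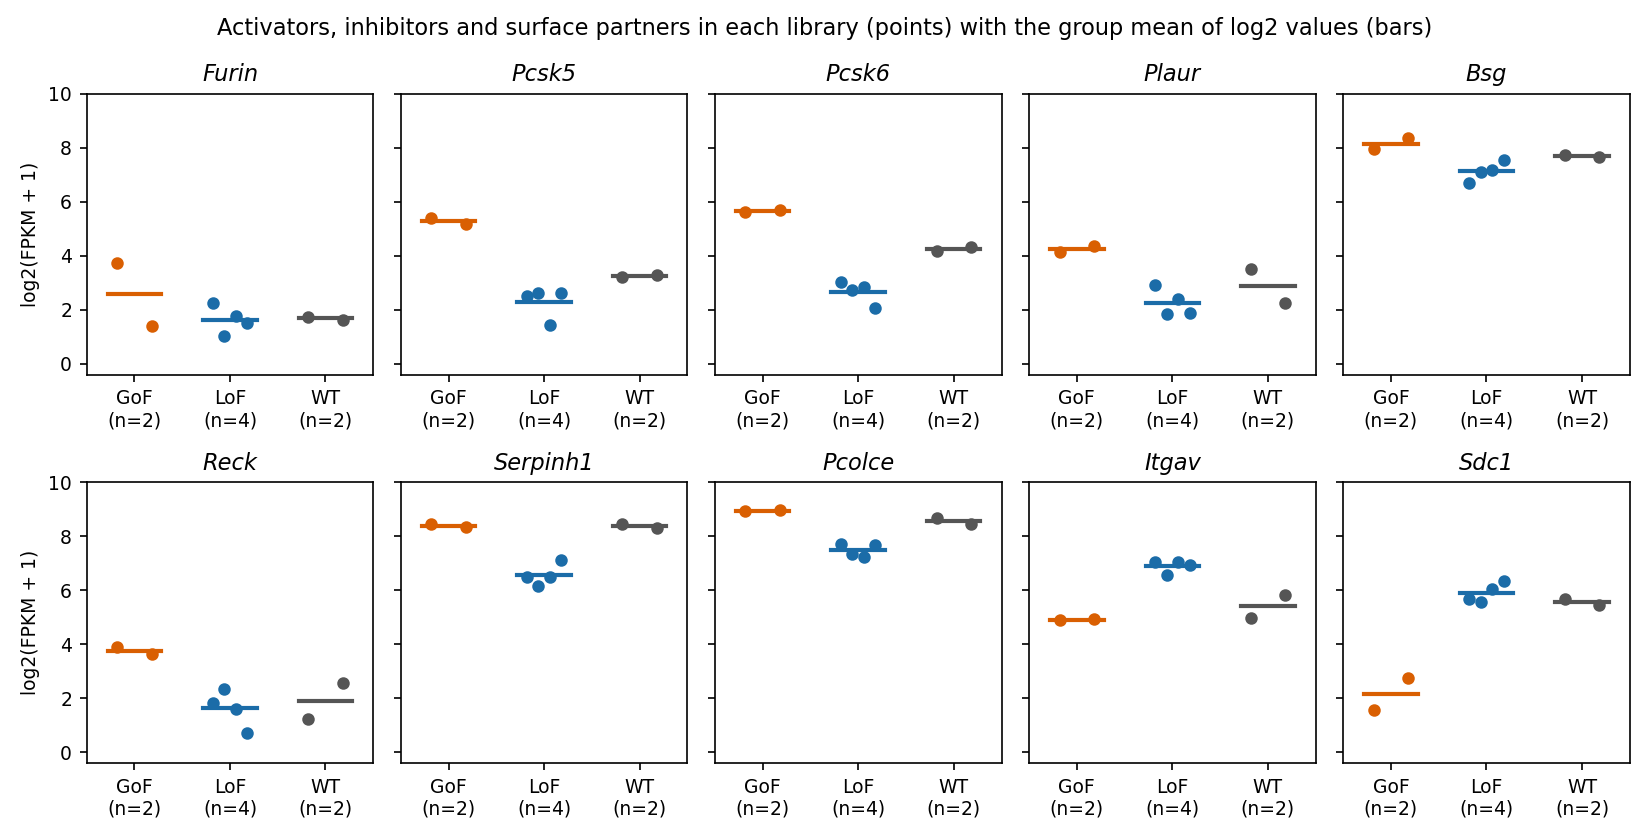
Levels as log2(FPKM + 1) of 10 genes of activators, inhibitors and surface partners in GoF, LoF and WT libraries; points are libraries and bars are means of the log2 values. Pcsk5 and Pcsk6 are higher in both GoF libraries than in the 6 others, Serpinh1 and Pcolce are lower in the 4 LoF libraries, and Sdc1 is lower in GoF.

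Surface proteins that dock MMPs were lower for 5 and higher for 0 of 12 tested genes in GoF against LoF, with 6 of the 12 at an unadjusted p under 0.05 (limma). The shares over all tested genes were 5.68% lower and 5.97% higher. Sdc1, the syndecan-1 gene, had 2.00 and 5.65 FPKM in GoF, against 46.3 to 80.4 FPKM in LoF, and 50.6 and 42.3 FPKM in WT. GoF was lower than LoF (limma, log2 change -3.75, SE 0.39, adjusted p = 0.000302) and lower than WT (-3.41, SE 0.45, adjusted p = 0.00437), the second not without WT replicate 1 (adjusted p = 0.0611). Itgav, the integrin αv gene, had 28.5 and 29.3 FPKM in GoF, against 93.9 to 131 FPKM in LoF (adjusted p = 0.00264), and it was higher in LoF than in WT, at 30.6 and 55.7 FPKM (adjusted p = 0.0484). The last call ended without any 1 of the 8 libraries (adjusted p of 0.0696 to 0.375). The remaining 3 lower genes were Cd9, Itgb3 and Tspan12, and their calls ended without GoF replicate 1 (adjusted p = 0.438, 0.15 and 0.411) and without GoF replicate 2 (0.0699, 0.195 and 0.054). Of 16 alternatives, the call of Cd9 was lost in 13, that of Tspan12 in 11 and that of Itgb3 in 4. Leaving out LoF replicate 2, 3 or 4 or either WT library ended the calls of Cd9 and Tspan12 (adjusted p of 0.0553 to 0.0816).

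The matrix proteins that MMPs cut changed in both directions. Of 18 tested substrate genes, 5 were higher and 7 lower in GoF than in LoF, 2 higher and 4 lower in LoF than in WT, and 1 higher and 2 lower in GoF than in WT. In the same order, 11.6%, 1.23% and 2.31% of all tested genes changed. The substrate counts rest on single libraries. The 12 calls of GoF against LoF numbered 8 without either GoF library. The 6 calls of LoF against WT numbered 2 without LoF replicate 2, 2 without WT replicate 1 and 0 without WT replicate 2 (limma, with 9 genes at an unadjusted p under 0.05). The 3 calls of GoF against WT numbered 1 without WT replicate 1 and 6 without LoF replicate 1. In GoF against LoF the 6 with the smallest adjusted p were Col3a1, Spp1 and Tnc, which were lower, and Dcn, Col1a1 and Col1a2, which were higher. Col3a1, a gene of fibrillar collagen, had 3.06 and 0.538 FPKM in GoF, against 92.7 to 136 FPKM in LoF and 14.8 and 23.9 FPKM in WT. Tnc, the tenascin-C gene, had 14.4 and 14.3 FPKM in GoF, against 106 to 174 FPKM in LoF and 188 and 94.5 FPKM in WT. Dcn, the decorin gene, had 886 and 797 FPKM in GoF, against 23.3 to 57.0 FPKM in LoF and 152 and 422 FPKM in WT.

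Of 24 tested genes of transcription factors known to act on MMP promoters, 5 were called in GoF against LoF and 19 did not pass. The share called over all tested genes was 11.6%, with 5.97% higher and 5.68% lower. The 3 higher genes were Etv5, Mef2c and Sp7, and the 2 lower were Epas1 and Ets1. The calls of these 5 ended without GoF replicate 1 (limma, adjusted p of 0.0501 to 0.115), and those of Etv5, Sp7 and Ets1 also without GoF replicate 2 (0.101, 0.101 and 0.135). Runx2, a known activator of Mmp13, had 33.6 and 19.9 FPKM in GoF, against 33.6, 23.9, 19.4 and 27.9 FPKM in LoF (adjusted p = 0.991), and 38.2 and 63.7 FPKM in WT. Of the AP-1 genes, Fos had 346 and 360 FPKM in GoF, against 138 to 292 FPKM in LoF (adjusted p = 0.124), and Jun had 9.43 and 15.0 FPKM in GoF, against 11.53 to 26.6 FPKM in LoF (adjusted p = 0.497). None of the 24 was called by limma against WT, in LoF or in GoF, with 9 and 4 at an unadjusted p under 0.05.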

How the data were processed

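The authors deposited 1 table of FPKM values, with 1 column for each of the 8 libraries. Per the submitters' processing notes, which state no role or order, the tools were HISAT2, SAMtools 0.1.18, Cufflinks and HTSeq, and the genome build was mm10. Which annotation they used is not given in the sources used here. Because FPKM scales to the library's total, very abundant genes lower all others. Of 48555 lines, repeats of 49 gene IDs, all with identical values, were dropped, which left 48490 genes. Symbols were matched to the table's names. For Itgam, with 2 IDs, both at 0, 1 was used.

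The deposited FPKM were transformed to log2(FPKM + 1) with no further normalization, a scale that understates the change of low genes. One model of GoF, LoF and WT means was fitted in R 4.3.3 (limma 3.58.1, trend option on), with Benjamini-Hochberg adjustment over 12888 genes. Total degrees of freedom were 10.1. The code was tested on simulated data. No count model was used, since read counts are unknown, and no counting intervals were computed.

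The members, the lists of partner and marker genes, the tests and the 16 alternatives (under "How the results depend on the processing") were chosen with earlier results of these data known. Named genes were the members and called genes of the lists, at most 6 per list and comparison. Ctnnb1 was named as the targeted gene. Furin, Mmp23, Runx2, Fos, Jun and single marker genes were chosen after their values were seen. Sex was read from Xist and 4 Y-linked transcripts.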

Additional observations from a re-analysis of the deposited data

Results flagged for a closer look

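In the LoF group of 4 libraries, 2 of 13 quantities (the 10 members, the MMP and TIMP sums and their ratio) had 1 library far from the others by Dixon's test at the 95% level. Chance alone flags about 1 in 20 such groups. Mmp11 had 51.8 FPKM in LoF library 2, above the 22.8 to 27.4 FPKM of the other LoF libraries, with a gap over range of 0.841. Timp2 had 26.1 FPKM in LoF library 4, below 44.6 to 46.0 FPKM in the other LoF libraries, with a gap over range of 0.931.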

How the results depend on the processing

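Of 27 tested member results, 11 were called, and 4 of these kept their call and direction under all 16 alternatives. These 4 were Mmp9, Mmp13, Mmp16 and Timp3 in GoF against LoF. The count of called members was 6, 1 and 4 in GoF against LoF, LoF against WT and GoF against WT, and leaving out 1 library gave 5 to 6, 0 to 1 and 2 to 4. In LoF against WT it was 2 with quantile normalization and 0 with only the groups compared, with the replicate block, with a sex term and without either WT library (limma, with 5, 5, 3, 3 and 2 members at an unadjusted p under 0.05). In GoF against WT it was 0 with only the groups compared (5 at an unadjusted p under 0.05), 1 with the replicate block and 1 with a sex term. Replicate numbers were not taken to pair libraries, since no label says that they do. The correlation of deviations of same-numbered libraries was -0.007 to 0.030. With 2 libraries in GoF and in WT, deviations within a group mirror each other, so this check could hardly show a pairing.

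Over all genes, the called counts of 1501, 159 and 298 ranged over 414 to 1400, 3 to 135 and 48 to 337 when 1 library was left out. With the replicate block they were 727, 1 and 15, and with a sex term 974, 14 and 11. For LoF against WT a pseudocount of 0.1 gave 83, no filter on low values 53, no mean-variance trend 54 and only the groups compared 0 (1569 at an unadjusted p under 0.05). In GoF against WT only the groups compared gave 0 (2334 at an unadjusted p under 0.05). Fewer libraries stand behind the fits of the groups compared alone and of those with 1 library left out. The cause of the other shifts was not tested. Of GoF against WT calls, 61.1% were higher, and 46.9% with a pseudocount of 0.1. LoF against WT calls were 73 higher and 86 lower, and 80 higher and 147 lower with quantile normalization. The median log2 fold change of all genes in GoF against LoF was -0.174, against -0.0465 after median ratio scaling and -0.0309 after quantile normalization.

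Differences near 0 changed sign without a call. In GoF against LoF, Ctnnb1 had a log2 fold change of -0.0658 with quantile normalization and -0.0521 without GoF replicate 2 (to 0.212 without GoF replicate 1), against 0.08. For LoF against WT, Mmp14 had -0.0608 with quantile normalization, against 0.08, and Timp1 0.0133 with a sex term, against -0.13. In GoF against WT, Mmp2 had 0.0253 without GoF replicate 2, against -0.13, and Timp2 -0.28 with a sex term, against 0.12. Read depth is unknown, so a value listed at 0 gives no limit.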
